A study of Mus musculus with 4 samples.

Results

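Serine, one-carbon and nucleotide synthesis was followed through 30 genes that were chosen by name for their place in the pathway, with earlier results of these data known. They were 8 of serine synthesis and the folate cycle, 10 of purine synthesis and turnover, 4 of pyrimidine synthesis and 8 of deoxynucleotide (dNTP) supply. Of the 30, 28 had a gene model in the deposited tables, 27 had at least 1 read and 26 had enough reads to be tested, among 38588 models of which 6539 were tested. PSAT1 and NT5C2 were matched to no gene model, so their expression was not analysed here. DUT had 0 reads and APRT had 1 read in each RbLoTem library and 0 in each RbHiTn library.

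Dividing T cells must copy their genome and make RNA, and so need purine and pyrimidine nucleotides. Serine, made from a glycolytic intermediate or taken up, gives a carbon to folate and becomes glycine, and both the folate-bound carbon and glycine are built into the purine ring. Ribonucleotide reductase turns ribonucleotides into deoxynucleotides for DNA, and kinases salvage deoxynucleosides. Many of these genes are known to rise when naive T cells are activated, and inhibitors of several of the enzymes are used as immunosuppressants or against tumours.

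The libraries came from CD4+ T cells of the spleens of resting C57BL/6-Foxp3tm1Flv/J mice, in which Foxp3 carries a fluorescent reporter. RbLoTem cells were sorted as CD4+CD62L-CD44+FoxP3-CD45RbLo effector memory cells. RbHiTn cells were sorted as naive cells, CD4+CD62L+CD44-FoxP-CD45RbHi in the labels and FoxP3- in the methods. Both subsets were then kept for 72 h in wells coated with 2 ug of anti-CD3 antibody, which engages the T cell receptor, so each library is of stimulated cells and no unstimulated library was compared. There were 2 libraries per subset. No source used here gives the age or number of the mice, or the meaning of the suffix o on 1 label of each subset (replicate 2 below). Separate animals or cultures behind the 2 libraries of a subset are not stated either, so the p-values rest on a spread that may be technical.

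For each gene model the tables gave its reads and its RPKM, the exon reads scaled to 1 kb of exon and to 1000000 reads in genes. The models carry human symbols and human positions, with no build named, although the cells were from mice, so a mouse transcript unlike the human one can have few or no reads. A gene is compared between libraries on the same model, whereas levels of different genes, even per kb of exon, are less certain. Reads in genes were between 4192083 and 6514106 per library, 89.8% to 90.5% of exon reads had a single place, and the 30 genes together took between 7168 and 7848 of each 1000000 exon reads. The T cell markers CD3E, CD3G and LCK were read in every library, whereas CD3D, CD2 and CD28 had 0 reads and CD4 had 1 to 4 reads. By the edgeR test used below, CD3E, CD3G and LCK were lower in RbLoTem (log2 fold change −0.93, −1.10 and −0.26). The other 6 of the 9 T cell markers tested were not called (33.3% called, beside 48.0% of all models). B cell markers, of which 6 of the 12 listed could be tested, summed to an RPKM of 9.18 and 10.1 in RbHiTn and 0.278 and 0.328 in RbLoTem, with CD79A, MS4A1 and BLK at 0 reads in RbLoTem. Markers of dendritic cells, monocytes and macrophages (2 of 14 tested) summed to 4.12 and 3.71 against 0.455 and 0.552. Of the 11 with a model only 3 had exon reads, namely SPI1, CTSS and ITGAM, the last with 1 read. ITGAX, CD14, CSF1R and CD68 were among those with 0 exon reads in every library, so this sum is that of SPI1 and CTSS. The part of B cells or of these other cells in the results below was not tested. In bulk RNA, fewer cells of a type cannot be told apart from less RNA per cell.

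To show the regulatory sequence around these genes, the 250 bases before each start in RefSeq (GRCm38.p6) were searched on both strands for CACGTG (the E-box bound by MYC and related factors), TTCCCGC or TTGGCGC (the E2F type) and TGATGCA (the ATF4 type). Promoters were matched for 27 of the 30 genes. An E-box stood in 6 of the 27 (22.2%) against 6.86% of 27025 genes, and an E2F-type match in 5 (18.5%) against 6.45%. The ATF4-type letters stood in 1 of 27 (3.70%), NT5C2, against 3.10%. The median GC content was 60.0% for the members and 52.4% for all genes. To show what such matches look like, 1 match each of 8 members is given, among them 3 of the 4 purine genes called higher below, with the matched letters in capitals, 5′ to 3′ on the strand of the gene. Matches not shown are named after them.
Paics E-box, chr5:76951089-76951114, plus strand: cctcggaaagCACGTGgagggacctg
Atic E-box, chr1:71557139-71557164, plus strand: acctcggggtCACGTGgggtcgacac
Impdh2 E-box, chr9:108560316-108560341, plus strand: gctcgataagCACGTGgttacccagc
Nme1 E-box, chr11:93968039-93968064, minus strand: cttgatacgcCACGTGggctcgcctt
Ppat E2F type, chr5:76951612-76951638, minus strand: gtccccaggcTTCCCGCcgcgcaggcg
Adss E2F type, chr1:177796583-177796609, minus strand: gcttcggcctGCGCCAAgtgtggtccc
Rrm1 E2F type, chr7:102441618-102441644, plus strand: ggagaactcgTTCCCGCcaggtccgct
Dtymk E2F type, chr1:93801990-93802016, minus strand: gttccgcgagTTGGCGCtcgctaaact

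The E-box ended 198 bases before the start of Paics, 105 before that of Impdh2, 24 before a start of Nme1 and 2 before that of Atic. A further E-box stood 13 bases before another RefSeq start of Nme1, and the other genes with an E-box were Dtymk and Nt5c2. Ppat held 3 E2F-type matches and Adss 2, of which 1 each is shown, and the remaining E2F-type gene was Mthfd1. In the case of Adss the capitals are the reverse complement of TTGGCGC. No match of the 3 kinds stood in the windows of Phgdh, Impdh1, Gmps, Cad, Umps, Ctps1 or Rrm2. Some windows also lie in annotated transcripts. Exons of any gene covered all 250 bases of the windows of Ppat, Paics and Mthfd1, 249 of 1 Nme1 window and 150 of the Impdh2 window. In the windows of Atic, Adss, Rrm1 and Dtymk they covered 6 or fewer. A gene counted if any of its windows held a match, and Nt5c2 had 7 windows. A match is a description of letters and not a binding site.

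With edgeR's quasi-likelihood test at an adjusted p under 0.05, 15 of the 26 tested members were called (57.7%), beside 48.0% of all 6539 models. Of these, 10 were higher in RbLoTem cells (24.3% of all models were) and 5 were lower (23.6% of all models were). The share called among the members was therefore near the background, and the text that follows is about which members differed and by how much. The median log2 fold change of the 26 was 0.08 (−0.01 over all models) and the median size of the change was 0.21 (0.32 over all models). Among the 18 members with at least 1000 reads over the 4 libraries, 12 were called (66.7%) beside 60.2% of the 2636 models of that depth, and the largest of their changes was that of PHGDH, short of a log2 fold change of 1 in size, beside 5.35% of models of that depth called past it. In RPKM, both RbLoTem libraries lay above both RbHiTn libraries for 13 members and below for 8, beside 34.8% and 37.6% of all tested models.

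**Figure D1:**
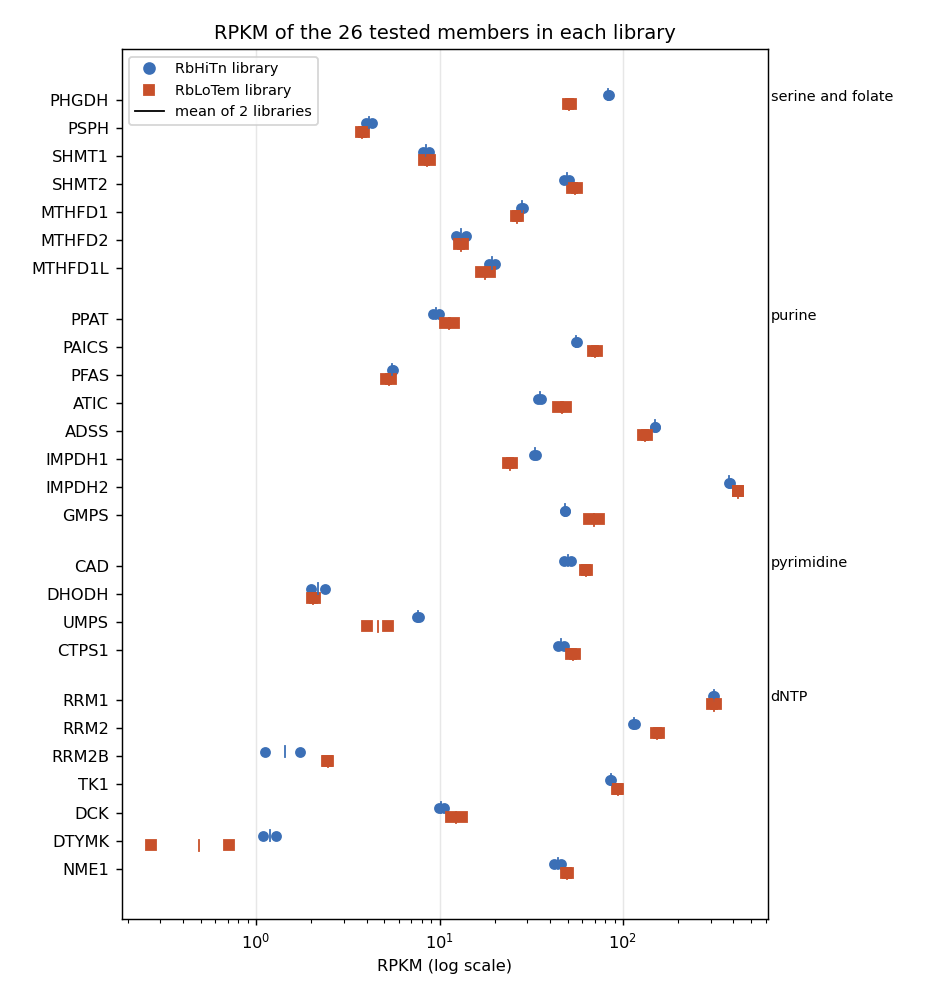
RPKM (log scale, exon reads scaled to 1 kb and 1000000 reads in genes) of the 26 tested members in each RbHiTn library (circles) and RbLoTem library (squares), grouped by class, with a tick at the mean of 2 libraries. IMPDH2 and RRM1 stood highest, PHGDH lay lower in both RbLoTem libraries, and DTYMK and RRM2B were read at an RPKM of 0.268 to 2.47.

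In the serine and folate genes, PHGDH stood apart. PHGDH, the enzyme that opens serine synthesis from a glycolytic intermediate (human chromosome 1, 120202421 to 120286838, in the files), had 3034 and 1970 reads and an RPKM of 82.8 and 83.6 in RbHiTn, against 1310 and 1889 reads and an RPKM of 49.9 and 52.2 in RbLoTem. The groups did not overlap, and the RbLoTem libraries were the low ones. The level in RbHiTn was 1.62-fold that in RbLoTem, a log2 fold change of −0.69 (SE 0.06, 95% interval −0.81 to −0.58, adjusted p = 6.2e-12 by edgeR). This call held in all 13 alternative analyses, with a log2 fold change between −0.73 and −0.66.

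PSPH, which completes serine synthesis, had an RPKM of 4.28 and 3.97 in RbHiTn and 3.87 and 3.72 in RbLoTem and was not called (log2 fold change −0.13, 95% interval −0.54 to 0.28, adjusted p = 0.64). With 46 to 77 reads per library, a difference of the size seen for PHGDH was outside this interval, and a smaller one was not detectable at this depth. By DESeq2 the SE of PSPH was 0.35, against 0.20 by edgeR, so a difference of the PHGDH size is excluded by the edgeR interval only. SHMT2, the mitochondrial enzyme that moves a carbon from serine to folate, had an RPKM of 50.8 and 47.9 against 52.8 and 56.3. Both RbLoTem libraries were slightly above, and the call was at the threshold (1.11-fold, log2 fold change 0.15, SE 0.06, adjusted p = 0.049 by edgeR). It was lost in 8 of the 13 alternatives, with adjusted p = 0.15 by DESeq2, 0.052 without RbHiTn replicate 1, 0.34 without RbHiTn replicate 2 and 0.30 without RbLoTem replicate 2.

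The other folate enzymes were not called. For SHMT1, the cytosolic counterpart of SHMT2, the RPKM was 8.16 and 8.78 in RbHiTn and 8.22 and 8.83 in RbLoTem (adjusted p = 0.87). MTHFD1, which interconverts folate-bound carbon in the cytosol, read 28.7 and 27.9 against 26.3 and 26.8, and its 95% interval of the log2 fold change was −0.22 to 0.05. For MTHFD2, the mitochondrial dehydrogenase, and MTHFD1L, which releases formate from mitochondria, the intervals were −0.21 to 0.19 and −0.29 to 0.07. The libraries of the subsets overlapped for SHMT1, MTHFD2 and MTHFD1L. Thus 1 of the 7 tested genes of this class was higher, 1 was lower and 5 were not called. The share called was 28.6%, beside 48.0% of all models, and the median log2 fold change was −0.09.

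Within a library, the RPKM ratio of SHMT2 to PHGDH was 0.614 and 0.573 in RbHiTn and 1.06 and 1.08 in RbLoTem. Of the 2 genes PHGDH had the larger log2 fold change in size (−0.69, against 0.15 for SHMT2). The ratio of SHMT2 to SHMT1 was 6.23 and 5.46 in RbHiTn and 6.43 and 6.37 in RbLoTem, and that of MTHFD1 to MTHFD1L overlapped between the subsets. These ratios and those given below were picked after the values were seen and carry no test.

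The purine genes held the largest number of calls and were also the class with the most genes tested. The share called was 75.0%, the same as for the pyrimidine genes, beside 48.0% of all models. Of 8 tested, 4 were higher in RbLoTem (PAICS, ATIC, IMPDH2 and GMPS), 2 were lower (ADSS and IMPDH1) and 2 were not called (PPAT and PFAS), with a median log2 fold change of 0.20. Their summed RPKM was 718 and 713 in RbHiTn and 794 and 774 in RbLoTem, and IMPDH2 made up more of this sum than any other member.

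The genes of the path to IMP, the common purine precursor, were read at moderate levels. PPAT, which commits ribose phosphate to purine synthesis, had an RPKM of 9.96 and 9.25 in RbHiTn and 11.9 and 10.7 in RbLoTem. The groups did not overlap, but the adjusted p was 0.062 (log2 fold change 0.23, 95% interval 0.02 to 0.44). It was under the threshold with the label suffix as a block (0.040) and without RbLoTem replicate 2 (0.049). PAICS, a bifunctional enzyme of the middle of the path (human chromosome 4, 57301907 to 57327534), had 1567 and 1006 reads in RbHiTn and 1459 and 1908 in RbLoTem, and an RPKM of 55.9 and 55.7 against 72.5 and 68.9. Both RbLoTem libraries were high, a 1.27-fold difference (log2 fold change 0.35, SE 0.06, adjusted p = 1.4e-05 by edgeR).

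ATIC, which carries out the closing steps to IMP with a folate-bound carbon, read 36.0 and 34.3 in RbHiTn and 48.7 and 44.5 in RbLoTem. This was 1.33-fold higher in RbLoTem (log2 fold change 0.41, SE 0.07, adjusted p = 1.3e-05 by edgeR). PFAS, an amidotransferase of the same path, read 5.57, 5.49, 5.12 and 5.45 across the 4 libraries and was not called (95% interval of the log2 fold change −0.30 to 0.19). Hence the members of this path did not share a single call, and the interval of PFAS did not include the change estimated for PAICS or ATIC.

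PPAT and PAICS lie head to head. In the human models of the files 125 bases separate them on chromosome 4, and in mouse RefSeq (GRCm38.p6) the starts of Paics and Ppat are 276 bases apart on opposite strands of chromosome 5, so that the transcripts overlap there. The human models, on which the reads are listed, do not overlap. No source used here says how reads from the shared mouse stretch were assigned to them, or whether the counting used strand. The ratio of PAICS to PPAT in RPKM was 5.61 and 6.02 in RbHiTn and 6.08 and 6.41 in RbLoTem.

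IMP is the branch point between AMP and GMP, and the members on the GMP side differed in direction among themselves. ADSS, which starts the AMP branch, had an RPKM of 149 and 150 in RbHiTn and 135 and 129 in RbLoTem. The RbLoTem libraries were the low ones by a small margin (log2 fold change −0.17, SE 0.05, adjusted p = 0.0098 by edgeR). This call was lost without RbHiTn replicate 1 (adjusted p = 0.053) and without RbLoTem replicate 2 (0.11).

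IMPDH1 and IMPDH2 encode the enzymes that open the GMP branch, the targets of mycophenolic acid. IMPDH2 (human chromosome 3, 49061758 to 49066841), the isoform known to rise in activated lymphocytes, had 6884 and 4378 reads and an RPKM of 381 and 377 in RbHiTn, against 5482 and 7572 reads and 423 and 425 in RbLoTem. The difference was small beside the level and larger than the spread between libraries, 1.12-fold (log2 fold change 0.17, SE 0.05, adjusted p = 0.0037 by edgeR). IMPDH1, on human chromosome 7 (128032331 to 128050040), read 32.6 and 33.5 in RbHiTn and 23.6 and 24.9 in RbLoTem, the opposite direction (log2 fold change −0.43, SE 0.08, adjusted p = 3.4e-05 by edgeR). The genes are near-identical in parts, yet 99.3% of the IMPDH1 reads and 100% of those of IMPDH2 had a single place.

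GMPS, which turns XMP into GMP with the amide nitrogen of glutamine, had the largest rise among the members with at least 1000 reads. On human chromosome 3 (155588325 to 155661815), it had 2788 and 1791 reads in RbHiTn and 3075 and 3740 in RbLoTem, or an RPKM of 48.2 and 48.1 against 74.0 and 65.4. The RbLoTem libraries differed from each other more than those of RbHiTn and both lay above them. The fold was 1.46 (log2 fold change 0.54, SE 0.06, 95% interval 0.42 to 0.66, adjusted p = 2.3e-09 by edgeR). Over the 13 alternatives it stayed called, between 0.45 and 0.63.

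Within each library, the ratio of GMPS to ADSS in RPKM was 0.324 and 0.321 in RbHiTn and 0.548 and 0.507 in RbLoTem. IMPDH2 over ADSS was 2.56 and 2.51 against 3.13 and 3.29. IMPDH1, the other member of the GMP branch, went the other way, with a ratio to ADSS of 0.219 and 0.224 in RbHiTn and 0.175 and 0.193 in RbLoTem. The ratio of IMPDH2 to IMPDH1 was 11.7 and 11.2 in RbHiTn and 17.9 and 17.1 in RbLoTem. These are ratios of mRNA levels only, and the scaling of a library cancels in them. APRT, which salvages adenine, was too thinly read to compare.

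**Figure D2:**
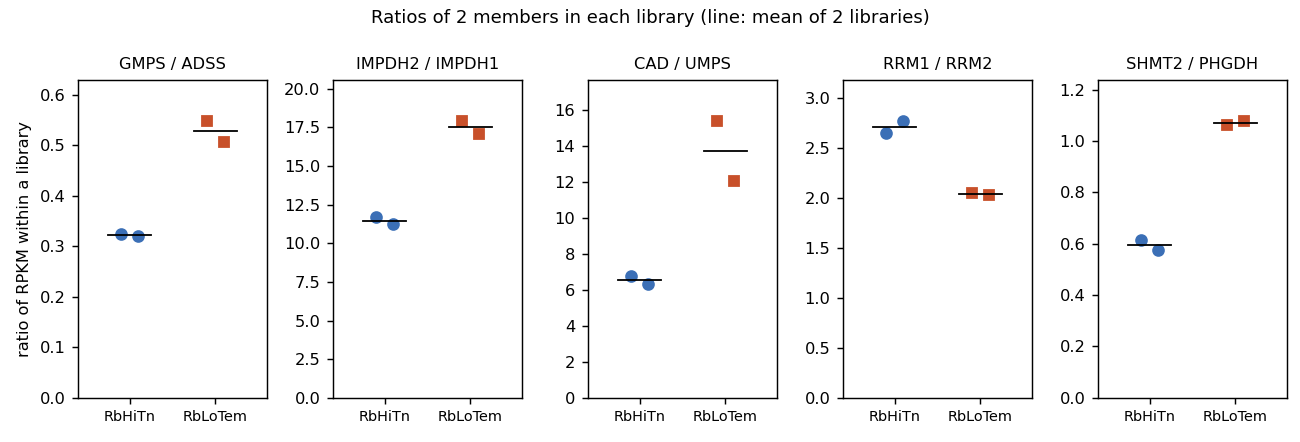
Ratio of the RPKM of 2 members (vertical axis, no unit, from 0) in each RbHiTn library (circles) and RbLoTem library (squares), with a line at the mean of 2 libraries. GMPS over ADSS, IMPDH2 over IMPDH1, CAD over UMPS and SHMT2 over PHGDH were higher in both RbLoTem libraries and RRM1 over RRM2 was lower, with no overlap.

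The pyrimidine genes differed at both ends of the path. CAD, the fused enzyme that opens pyrimidine synthesis (human chromosome 2, 27440258 to 27466811), had 2856 and 1688 reads and an RPKM of 52.1 and 47.8 in RbHiTn, against 2443 and 3428 reads and 62.1 and 63.3 in RbLoTem. The RbLoTem libraries were high, with a fold of 1.26 (log2 fold change 0.33, SE 0.06, adjusted p = 1e-05 by edgeR). UMPS, which finishes UMP (human chromosome 3, 124449213 to 124464040), went the other way. It had 176 and 111 reads in RbHiTn and 66 and 118 in RbLoTem, and its RPKM was 7.72 and 7.57 against 4.04 and 5.24. The groups did not overlap (log2 fold change −0.69, SE 0.15, 95% interval −1.01 to −0.38, adjusted p = 0.00034 by edgeR, 0.025 by DESeq2).

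DHODH, the mitochondrial enzyme between CAD and UMPS, had 42 to 56 reads per library and an RPKM of 1.99 and 2.38 against 2.08 and 2.02. The groups overlapped, and the 95% interval of the log2 fold change, −0.52 to 0.39, leaves a difference of the size of that of CAD not detectable at this depth. CTPS1, which makes CTP from UTP and whose loss in humans impairs lymphocyte proliferation, read 44.5 and 47.6 in RbHiTn and 54.6 and 52.4 in RbLoTem (log2 fold change 0.23, SE 0.06, adjusted p = 0.0023 by edgeR). It was no longer called without RbHiTn replicate 1 (adjusted p = 0.071). The 4 genes thus had 2 higher, 1 lower and 1 not called, a median log2 fold change of 0.08 and a summed RPKM of 106 and 105 in RbHiTn and 123 in each RbLoTem library. The ratio of CAD to UMPS was 6.74 and 6.32 in RbHiTn and 15.4 and 12.1 in RbLoTem.

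Of the dNTP genes, RRM2 had the lowest adjusted p. RRM2, the small subunit of ribonucleotide reductase made in S phase (human chromosome 2, 10262455 to 10271545), had 3771 and 2360 reads in RbHiTn and 3628 and 4825 in RbLoTem, or an RPKM of 117 and 114 against 157 and 151. Both RbLoTem libraries were high (1.34-fold, log2 fold change 0.43, SE 0.05, 95% interval 0.32 to 0.53, adjusted p = 3.2e-08 by edgeR). RRM1, the large subunit of the same enzyme, read 309 and 314 in RbHiTn and 322 and 307 in RbLoTem. These overlapped, and the 95% interval of the log2 fold change was −0.08 to 0.12, which does not include the estimate for RRM2. The ratio of RRM1 to RRM2 was 2.65 and 2.77 in RbHiTn and 2.05 and 2.03 in RbLoTem.

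RRM2B, the small subunit induced by p53, was read far less. It had 63 and 26 reads in RbHiTn and 64 and 87 in RbLoTem, an RPKM of 1.74 and 1.12 against 2.47 and 2.44. The RbLoTem libraries were close together and the RbHiTn ones were not. The ratio of the counts, scaled by library size and TMM factor, was 1.64 (exact 95% interval 1.26 to 2.16, counting error only), and the log2 fold change 0.73 (SE 0.22, adjusted p = 0.0057 by edgeR). The call was lost by DESeq2 (0.099) and without RbHiTn replicate 2 (0.095), where the log2 fold change was 0.48. Without RbHiTn replicate 1 it was 1.14 (adjusted p = 0.0023).

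Among the kinases, NME1, which phosphorylates nucleoside diphosphates, read 42.2 and 46.0 in RbHiTn and 50.2 and 49.2 in RbLoTem (log2 fold change 0.19, SE 0.07, adjusted p = 0.026 by edgeR). The model of NME2 overlaps it, 78.3% of NME1 reads and 1.74% of NME2 reads had a single place, and the NME1 call was lost in 7 of the 13 alternatives, with adjusted p up to 0.30 without RbHiTn replicate 1. How reads were split between the near-identical copies is therefore uncertain, although the NME1 call held when only reads with a single place were counted.

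DTYMK, the thymidylate kinase, had the largest log2 fold change of the members and the fewest reads of those tested. It had 20 and 11 reads in RbHiTn and 3 and 11 in RbLoTem, an RPKM of 1.28 and 1.09 against 0.268 and 0.713. The RbLoTem libraries were both lower and far apart from each other. The ratio of the scaled counts was 0.437 (exact 95% interval 0.215 to 0.847, counting error only) and the log2 fold change −1.18 (SE 0.47, adjusted p = 0.037 by edgeR). It was the only called member past a log2 fold change of 1 in size, beside 14.2% of all tested models. The call was lost by DESeq2 (0.30), without RbHiTn replicate 1 (0.20), without RbHiTn replicate 2 (0.054) and without RbLoTem replicate 1 (0.25), where the log2 fold change was −0.74. Without RbLoTem replicate 2 it was −2.12 (adjusted p = 0.024), and by limma on log2(RPKM + 1) −0.57 (0.014).

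The salvage kinases were not called. TK1, the thymidine kinase of S phase, read 86.1 and 85.2 in RbHiTn and 93.0 and 94.0 in RbLoTem. The groups did not overlap and the 95% interval of the log2 fold change was −0.05 to 0.31 (adjusted p = 0.22). DCK, the deoxycytidine kinase, read 10.6 and 9.91 against 13.2 and 11.5, with an adjusted p of 0.077, and of 0.048 without RbLoTem replicate 2. Neither is shown to be alike in the subsets. For DUT, which removes dUTP, 0 reads allows an RPKM of up to 0.125 to 0.195 per library (3 reads, counting error only), which on a human model leaves the level of the mouse transcript unknown. In sum over the 7 tested genes, 3 were higher, 1 was lower and 3 were not called (57.1% called, beside 48.0% of all models). By DESeq2, 1 was higher and 0 were lower. The summed RPKM of the class was 568 and 571 in RbHiTn and 637 and 617 in RbLoTem.

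**Figure D3:**
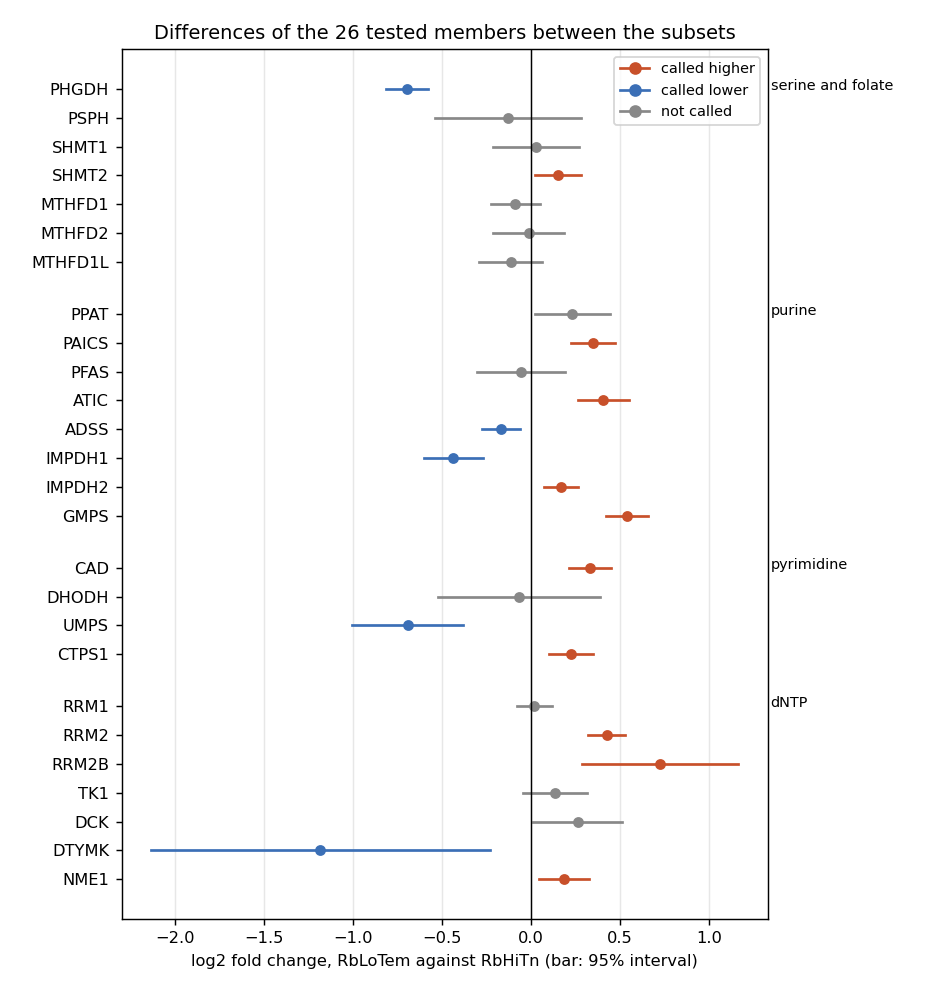
Log2 fold change (horizontal axis, RbLoTem against RbHiTn) of the 26 tested members with its 95% interval (bar), coloured by the edgeR call at an adjusted p under 0.05. GMPS, RRM2, ATIC, PAICS and CAD lay to the right of 0 and PHGDH, UMPS and IMPDH1 to the left, while DTYMK, RRM2B and DHODH had the widest bars.

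Proliferation genes were read beside the dNTP genes, since several of these are tied to S phase. Of 16 tested proliferation genes 3 were higher in RbLoTem (CCNB1, CCNE2 and CDC20), 8 were lower and 5 were not called. The share called was 68.8%, beside 48.0% of all models and 60.2% of models with at least 1000 reads. By DESeq2, 1 of the 16 was higher and 6 were lower. Their summed RPKM was 1434 and 1440 in RbHiTn and 1273 and 1252 in RbLoTem. TOP2A, a topoisomerase of dividing cells, had a log2 fold change of −0.47 and the replication helicase subunits MCM7 and MCM2 of −0.39 and −0.30. Of the other helicase subunits tested, MCM6 was at −0.14, and MCM3 and MCM4 were not called. RRM2 and TOP2A thus differed in direction, and the part of the cell cycle in the values of RRM2 and the other dNTP genes was not tested.

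Across the members, 9 calls held in all 13 alternatives. The 6 higher ones were PAICS, ATIC, IMPDH2, GMPS, CAD and RRM2, and the 3 lower ones were PHGDH, IMPDH1 and UMPS. The 6 calls lost in at least 1 alternative were those of SHMT2, NME1, DTYMK, RRM2B, ADSS and CTPS1. Over the 13 alternatives the log2 fold changes of the 9 stable members kept their direction, with that of UMPS between −0.92 and −0.54. DESeq2 called 7 members higher and 4 lower, and 32.2% of all tested models.

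**Figure D4:**
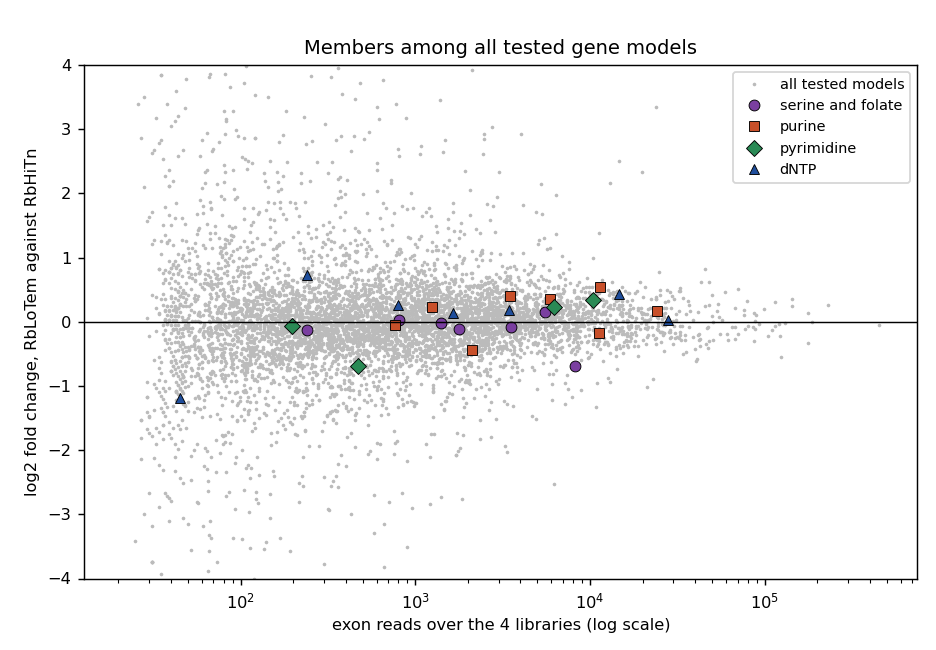
Log2 fold change (vertical axis, RbLoTem against RbHiTn) against exon reads over the 4 libraries (log scale) of all 6539 tested models (grey), with the 26 members marked by class. The axis ends at 4 in either direction and 104 models lie beyond it. The members lay inside the spread of models of like depth, and those with at least 1000 reads lay no further from 0 than PHGDH at −0.69.

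Of 72 other genes of the same pathways, a model was listed for 50, reads were found for 43 and 24 could be tested. Of these, 7 were higher, 3 were lower and 14 were not called (41.7% called, beside 48.0% of all models, of which 24.3% were higher and 23.6% lower). Of 9 serine and folate genes, 1 was higher and 1 lower, both parts of methionine adenosyltransferase, which makes the methyl donor S-adenosylmethionine. MAT2A, the catalytic subunit, read 263 and 264 in RbHiTn and 297 and 278 in RbLoTem (log2 fold change 0.13, adjusted p = 0.023 by edgeR, 86.0% of reads with a single place). MAT2B, the regulatory subunit, read 21.1 and 20.7 against 16.4 and 15.2 (log2 fold change −0.40, adjusted p = 0.00014).

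Of 9 other purine genes, 5 were higher (among them AMPD2, GMPR2, NT5C and PRPSAP1), 2 were lower (AMPD3 and NT5E) and 2 were not called. AMPD3, an AMP deaminase, had 40 and 29 reads in RbHiTn and 3 and 11 in RbLoTem (log2 fold change −2.34, SE 0.39, adjusted p = 8.5e-06 by edgeR). Its relative AMPD2 read 15.0 and 15.9 in RbHiTn and 23.8 and 25.5 in RbLoTem, the opposite direction (log2 fold change 0.69, adjusted p = 1.9e-09). NT5E encodes CD73, the surface enzyme that makes adenosine from AMP, and had 82 and 43 reads in RbHiTn and 37 and 40 in RbLoTem (log2 fold change −0.73, adjusted p = 0.0086, 0.18 by DESeq2). AMPD2 lies outside the rule for naming these genes, as do the genes listed without values, and was named after its values were seen.

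Of 3 other pyrimidine genes, UCK2, a uridine-cytidine kinase of salvage, was higher, with an RPKM of 33.0 and 32.6 in RbHiTn and 36.0 and 37.4 in RbLoTem (log2 fold change 0.17, adjusted p = 0.024, 0.096 by DESeq2). The 3 dNTP genes tested, NT5M, NME2 and NME6, had adjusted p between 0.16 and 0.74 by edgeR.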

How the data were processed

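Messenger RNA of 2 RbHiTn and 2 RbLoTem libraries was compared. The read counts and RPKM per gene model were deposited by the authors, and RPKM is total exon reads divided by exon length in kb and by the gene reads of the library in units of 1000000. Trimmomatic, TopHat, HTSeq, DESeq2 and mm10 are named in the submitters' processing notes, whereas the tables hold human models. No source used here gives the aligner, annotation or strand setting behind these tables. The deposited coverage signal was not used.

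Total exon read counts of models kept by filterByExpr (minimum count 10) entered edgeR 4.0.16 under R 4.3.3 (TMM, quasi-likelihood, Benjamini-Hochberg over 6539 models, threshold 0.05). The common biological coefficient of variation was 0.043. The SE is the log2 fold change divided by the square root of F, and the 95% interval uses it. Chi-square per degree of freedom was 2.13 within each subset and 25.6 to 37.5 between subsets, so no library was a copy of another. Alternatives were RLE, upper quartile or exon-total scaling, no filter, unique reads, limma 3.58.1 on log2 RPKM with a pseudocount of 0.1 or 1, DESeq2 1.42.0 on the same models, a block and each library left out. The fit was tested on simulated data.

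Members and gene lists were chosen with earlier results of these data known. All members are accounted for, and of the other pathway genes the 3 called with the largest change per class are named, except that some genes are not reported here. The depth limit of 1000 reads was set after seeing the data.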

Additional observations from a re-analysis of the deposited data

How the results depend on the processing

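Of 338 log2 fold changes of members recomputed over 13 alternatives, 301 kept their direction and side of the threshold, 24 lost and 3 gained the call and 10 changed sign. Those 10 were of genes not called. MTHFD2 changed sign without a filter (0.0037), by DESeq2 (0.0032) and with the block (0.0017), and RRM1 with total exon reads only (−0.0042). With each library left out in turn the log2 fold change lay between −0.028 and 0.075 for SHMT1, −0.099 and 0.091 for MTHFD2, −0.20 and 0.030 for DHODH and −0.013 and 0.054 for RRM1.

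The call of SHMT2, the 1 serine and folate member called higher, was lost (0 members) with total exon reads only, DESeq2, limma with either pseudocount and the block. By DESeq2, 991 models were lower, against 1545 by edgeR, and 1 dNTP member was higher and 0 lower. With each library left out in turn, the lone library of a subset being assumed to vary like the other subset, 7 to 10 members were higher and 3 to 4 lower, 0 to 1 serine and folate members higher, 1 to 2 purine members lower, 1 to 2 pyrimidine members higher and 0 to 1 dNTP members lower. Fewer of all models were called in each of these fits too. The cause was not tested.

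The suffix in the labels was fitted as a block. Deviations of the libraries that share a suffix had a correlation of −0.015, and no pairing was taken from the suffix, whose meaning is not known. With the block 3092 models were called, against 3137, with 10 members higher and 5 lower. PPAT gained the call, so 5 purine members were higher.

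With 2 libraries per subset and under 100 reads per library for PSPH, DHODH, RRM2B and DTYMK, small differences of these genes were not detectable. The median over all tested models lay between −0.04 and −0.0029 in each setting, so the scaling moved it little.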
